A study of Mus musculus with 48 samples.

Results

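The cytosolic ribosomal protein (RP) genes were described in bulk RNA sequencing of mouse thoracic aortas. Members were taken by symbol: Rpl or Rps followed by a number and at most one letter, together with Rplp0, Rplp1, Rplp2 and Rpsa, which gave 80 of the 18782 genes in the count table. Of these, 30 encode proteins of the small (40S) subunit, 47 carry names of the large (60S) subunit, and 3 encode the P-stalk of the large subunit. The 48 libraries came from thoracic aortas of WT C57BL/6J mice that entered the study at 3 weeks of age. Each library was 1 mouse, and p-values rest on the spread between mice within groups, estimated over all groups together. The paper reports that each group was spread over several cages, with males and females apart. The sample labels do not give the cage, so mice that shared a cage were treated as separate. Male (Ma) and female (Fe) controls drank normal water (MaCon, n = 10, and FeCon, n = 10). The other mice drank 0.4% β-aminopropionitrile (BAPN), an inhibitor of the collagen and elastin cross-linking enzyme lysyl oxidase, for 28 days, and were sorted by what their aortas looked like at the end. Those without a lesion formed MaNonAD (n = 4) and FeNonAD (n = 8), and those with a dissection or aneurysm formed MaAAD (n = 7) and FeAAD (n = 9). In the paper's methods the ascending aorta, the arch and the proximal descending aorta were excised, and RNA came from lesioned segments. Which segment gave the RNA of aortas without a lesion is not spelled out. BAPN and water mice shared the strain and the age range, and only mice alive at the end point were sequenced, so the lesion groups hold survivors. In the text, a library is named by its group and replicate number, so that FeAAD5 is FeAAD replicate 5.

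Ribosomes are built from ribosomal RNA and one copy each of most of these proteins, so the RP genes are among the most strongly and most evenly transcribed genes of a cell. Most of their mRNAs are short and begin with a C followed by a run of pyrimidines, the terminal oligopyrimidine (TOP) motif, through which the mTOR kinase and the RNA-binding protein Larp1 control how well they are translated. A few RP genes have tissue-restricted relatives: Rpl3l replaces Rpl3 in heart and skeletal muscle, and Rpl39l is best known from testis.

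The RefSeq promoter table (GRCm38.p6) held a promoter for 59 of the 80 members. A C at the annotated start followed by at least 4 further C or T was found in 14 of the 59, 23.7%, and in 20% of their 70 promoters, against 2.51% of all 32851 promoters in the table. The start-site windows below, 10 bases before the start and 20 from it on, show what this looks like in members named later. Capitals mark the longest run of at least 5 C or T in the window. Rps6, Rpl38 and Rplp2 were chosen as 3 members with such a start, Rpl32l as a low-level member with one, Rplp0, Rpl39, Rpsa and Rpl4 because the group comparisons turn on them, and Rpl3l as the muscle form.
Rps6, chr4:86857348-86857377, minus strand: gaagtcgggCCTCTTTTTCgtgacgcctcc
Rpl38, chr11:114668570-114668599, plus strand: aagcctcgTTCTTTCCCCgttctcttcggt
Rplp2, chr7:141447641-141447670, plus strand: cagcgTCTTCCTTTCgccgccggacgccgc
Rpl32l, chr10:20208429-20208458, plus strand: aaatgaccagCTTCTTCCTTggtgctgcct
Rplp0, chr5:115559457-115559486, plus strand: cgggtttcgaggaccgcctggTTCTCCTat
Rpl39, chrX:37085203-37085232, minus strand: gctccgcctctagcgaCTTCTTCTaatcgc
Rpsa, chr9:120127756-120127785, plus strand: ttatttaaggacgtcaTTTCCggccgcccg
Rpl4, chr9:64173377-64173406, plus strand: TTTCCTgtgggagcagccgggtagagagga
Rpl3l, chr17:24727816-24727845, plus strand: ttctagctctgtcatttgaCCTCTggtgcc
In Rps6, Rpl38, Rplp2 and Rpl32l the run covered the annotated start, whereas in Rplp0, Rpl39 and Rpsa it lay inside the transcript. The run of Rpl4 lay before the start. These starts are annotated and were not mapped in these libraries. The positions therefore do not show whether an mRNA begins with the TOP motif.

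The hexamer CCGGAA, the core to which ETS-family factors bind, was searched on both strands of the 300 bases. It was present in 32 of the 59 matched members, in 47.1% of their 70 promoters and in 14.9% of all promoters. The 4 sites printed belong to genes that recur in the results, with the hexamer or its reverse complement in capitals.
Rpl38, chr11:114668548-114668577, plus strand: ggggttaaccgtCCGGAAgcggaagcctcg
Rpl41, chr10:128549207-128549236, minus strand: ctagtaaggcagCCGGAAgtcgctgtctcg
Rpsa, chr9:120127685-120127714, plus strand: gccagaggctttTTCCGGagcggaagttct
Rps19, chr7:24884871-24884900, plus strand: tgagtgggacgcCCGGAAcgtgggcttgag
The GC box GGGCGG, read on both strands, stood in 57.1% of the members' promoters and in 35.7% of all. TATAAA, read on the coding strand from 50 to 5 bases before the start, stood in 0 of 70 and in 2.49% of all. These are matches of letters and were not tested as binding sites.

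Levels were expressed as counts scaled to a common library size (CPM). Of the 80 members, 76 averaged at least 10 CPM, from 57.3 CPM for Rpl38 to 1172 CPM for Rps2, with a median of 324 CPM. The 76 genes had transcripts with a median length of 705 bases, against 2586 for all listed genes. Per kilobase of transcript the highest were Rps2 with 1174 CPM per kb, Rpl10 with 1157 and Rpl23a with 977. Rps2 encodes a protein of the mRNA entry region of the small subunit, and Rpl10 encodes the protein that completes the large subunit in the cytoplasm. Rps20 was lowest of the 76 with 66.3 CPM per kb, a value that rests on an annotated transcript of 3706 bases. Without it the remaining genes spanned a 7.08-fold range per kb, down to 166 for Rpl38.

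Around the mRNA channel of the small subunit, Rps2 ranged from 748 CPM in FeNonAD2 to 2757 CPM in FeAAD5. Rps6, the substrate of the S6 kinases, ranged from 407 CPM in FeNonAD5 to 1094 CPM in FeAAD5, and Rps19, the gene most often mutated in Diamond-Blackfan anemia, from 160 CPM in FeNonAD2 to 643 CPM in FeAAD5. Rps27a, which is made as a fusion with ubiquitin, ranged from 224 CPM in FeNonAD5 to 914 CPM in FeAAD5. FeAAD5 also held the highest level of the large-subunit and stalk genes that follow, apart from Rpl36. Rpl5 and Rpl11, which with 5S RNA form the particle that binds Mdm2, ran from 331 CPM in FeNonAD5 to 907 CPM in FeAAD5 and from 153 CPM in FeCon2 to 564 CPM in FeAAD5. Rpl22, an RNA-binding protein with a role in T cell development, ran from 98.6 CPM in FeNonAD5 to 267 CPM in FeAAD5, and Rpl10 from 660 to 1427 CPM in the same pair. The acidic stalk proteins Rplp1 and Rplp2 ran from 239 CPM in FeNonAD5 to 1120 CPM in FeAAD5 and from 145 CPM in FeNonAD2 to 551 CPM in FeAAD5. Rpl36 had its highest level, 238 CPM, in MaCon5.

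The other 4 members were close to silent in aorta. Rpl32l averaged 2.34 CPM, Rpl6l 0.66 CPM, Rpl3l 0.18 CPM and Rpl39l 0.13 CPM, and Rpl3l and Rpl39l did not pass the filter on low counts. Rpl3l reached 1.39 CPM in MaCon6, 1.63 CPM in MaAAD7 and 1.44 CPM in FeCon10. In every other library it was at or below 0.37 CPM. The same 3 libraries had the highest summed level of 7 cardiac muscle markers (284, 391 and 595 CPM), where the group medians lay between 34 and 71.3 CPM. They also had the highest summed level of 6 skeletal muscle markers, 42.8, 38 and 61.2 CPM. No marker of either list was at 0 in every library of a group, although the cardiac markers Nppa and Myl3 and the skeletal markers Myh4 and Myh1 were at 0 in some. The part of heart or skeletal muscle tissue in the Rpl3l values was not tested. Rpl3 itself ranged from 428 CPM in FeNonAD5 to 1032 CPM in FeAAD5.

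As a group, the RP genes took 2.89% ± 0.78 (SD, n = 48) of the counts of a library. The lowest share was 1.99% in FeNonAD5 and the highest 6.40% in FeAAD5. By group, the lowest, median and highest shares were 2.28%, 2.79% and 4.08% in MaCon, 2.28%, 2.80% and 4.40% in MaAAD, and 2.41%, 2.62% and 3.79% in FeCon. In FeNonAD they were 1.99%, 2.41% and 2.78%, and in FeAAD 2.27%, 2.62% and 6.40%. The 4 MaNonAD libraries had 2.52%, 3.13%, 2.90% and 2.32%. All groups overlapped. Their order by mean was FeAAD (3.20% ± 1.36), MaAAD (3.13% ± 0.77), MaCon (2.97% ± 0.62), FeCon (2.82% ± 0.49), MaNonAD (2.72% ± 0.37) and FeNonAD (2.40% ± 0.32), and each step was smaller than the SD of either neighbour. In bulk tissue, fewer RP-rich cells and less RP mRNA per cell cannot be told apart.

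**Figure D1:**
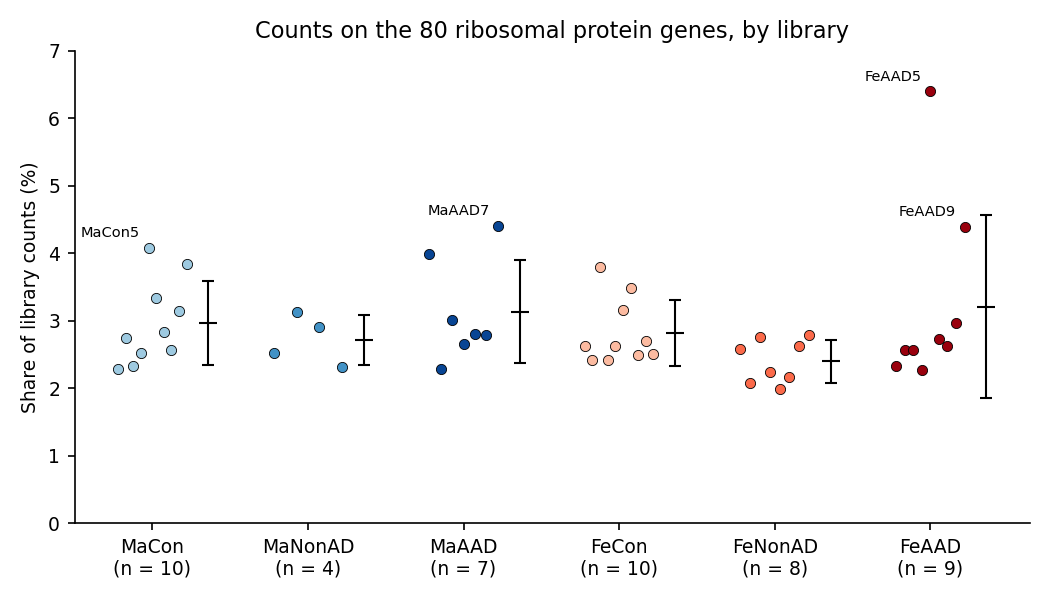
Share of library counts on the 80 RP genes (y axis, percent) for each of the 48 libraries (points) in the 6 groups, with the mean and SD of each group beside them. FeAAD5 at 6.40% stands above the other 8 FeAAD libraries, the highest of which is FeAAD9 at 4.39%, and the FeNonAD libraries lie between 1.99% and 2.78%.

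Within a group, the members rose and fell together from library to library. Over the 76 genes above 10 CPM, the deviations of pairs of members from their group means, on the log2(CPM + 1) scale, had a median Pearson r of 0.92 over 48 libraries, from 0.63 to 0.99. Without FeAAD5 the median was 0.91. Points in this correlation share their libraries and the scaling of each library. In FeAAD, all 76 members had their highest value in FeAAD5, and in MaCon 71 of 76 had it in MaCon5. In MaNonAD, 72 of 76 had it in MaNonAD2, and in MaAAD 55 of 76 had it in MaAAD7. In FeCon and FeNonAD the peak was less uniform, with 42 of 76 in FeCon7 and 42 of 76 in FeNonAD8. The pooled within-group SD of a member had a median of 0.37 log2 units, against 0.28 over all 14431 tested genes and 0.25 over the 9763 other genes above 10 CPM. The 994 other tested genes with transcripts under 1000 bases had a median SD of 0.34. FeAAD had the widest spread, with a median SD of 0.51 for the members and 0.31 for all tested genes, and FeNonAD the narrowest, with 0.21 and 0.20. The place of FeAAD rested on FeAAD5: without it the values were 0.33 and 0.25, and the members' SD was then below that of MaCon (0.38) and MaAAD (0.35).

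**Figure D2:**
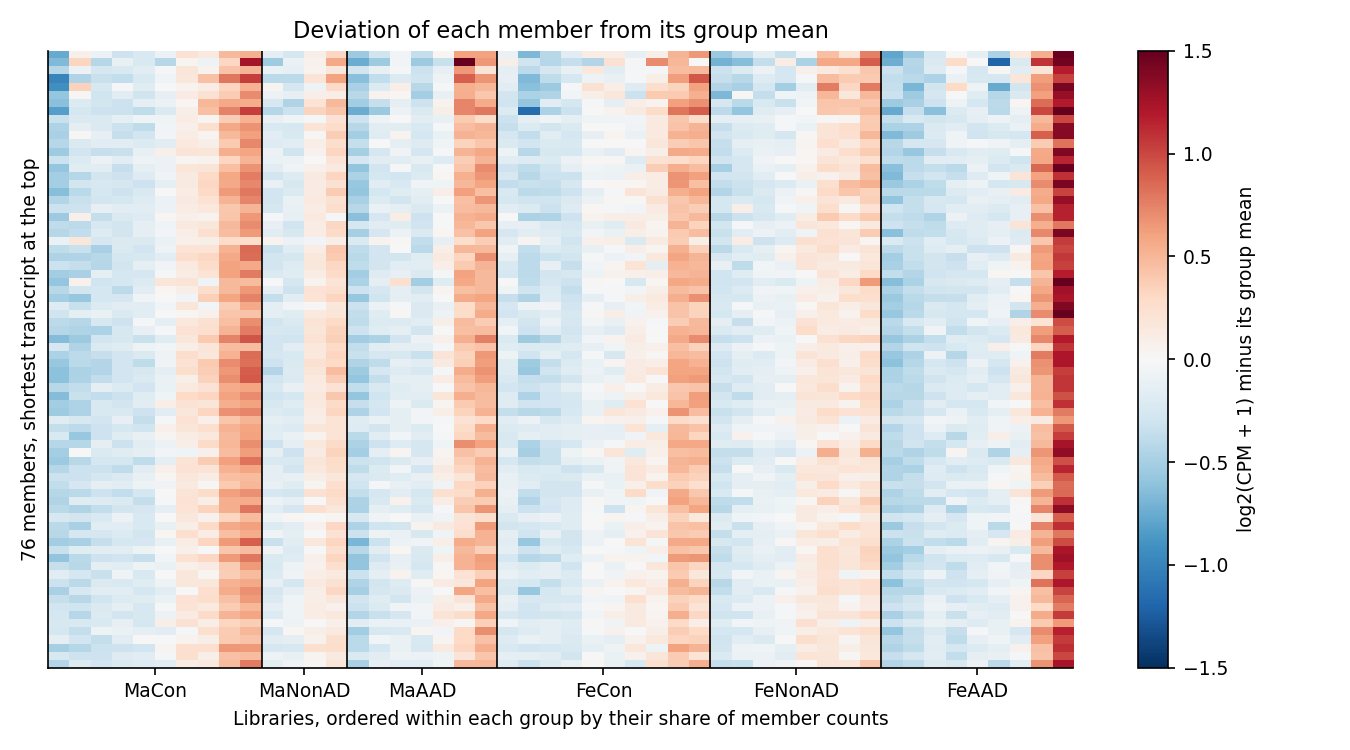
Deviation of each of 76 RP genes (rows, shortest transcript at the top) from its group mean, as log2(CPM + 1), in 48 libraries (columns, ordered within each group by their share of RP counts, lines between groups). Whole columns take one colour, because the members deviate together, and the darkest column is FeAAD5, where the members lie a median of 1.32 log2 units above the median of the other FeAAD libraries.

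The spread differed among members. Rpl38, which has been tied to the translation of developmental mRNAs, had the largest pooled SD at 0.64 log2 units, followed by Rpl41, whose peptide is among the smallest known, at 0.59 and Rpl36 at 0.51. In MaCon, Rpl38 had a lowest, median and highest level of 39.1, 58.4 and 149 CPM, and in MaAAD 27.9, 37.3 and 139 CPM. In the 4 MaNonAD libraries it was 48, 76.4, 53.8 and 35.3 CPM. Rpl41 ran from 108 to 451 CPM in FeCon and from 176 to 863 CPM in FeAAD. These 3 genes have transcripts of 345, 437 and 383 bases. Among the 78 members that passed the filter, the smallest SDs belonged to Rpl6l, a gene near its detection limit, at 0.21, to Rpl4 at 0.21 and to Rpl10 at 0.23. For Rpl6l the value is held down by the pseudocount of 1. Its CPM ran from 0.12 in FeAAD1 to 1.21 in FeAAD9, so it was not evenly expressed. Rpl4 and Rpl10 were abundant, at 845 and 925 CPM. Split by transcript length, the 26 shortest members had a median SD of 0.40, the 25 in between 0.37 and the 25 longest 0.35. Split by the GC content of the transcript, the median SD was 0.36 in the 26 members lowest in GC, 0.36 in the 25 in between and 0.41 in the 25 highest, so that the spread moved with both features.

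The libraries also differed in the length of the transcripts that their other counts came from. Over all genes except the members, the count-weighted mean transcript length had a median of 3674 bases and ran from 3096 in FeAAD5 to 3839 in FeNonAD4. The 12 libraries with the highest RP share (3.13% to 6.40%) had a median length of 3352 bases, the 24 in between 3668, and the 12 with the lowest share (1.99% to 2.42%) 3721. In 4 of the 6 groups, the library with the highest RP share was also the one with the shortest mean length. In FeAAD5, the 994 other tested genes with transcripts under 1000 bases lay a median of 0.64 log2 units above the median of the other FeAAD libraries, and the 4009 genes of 4000 bases or more 0.29 below it (median −0.29), where all tested genes together were at 0.00. The members lay 1.32 above, from 0.72 for Rpl10 to 1.97 for Rpl39, and 67 of 76 were more than 1 log2 unit higher, against 29.4% of the other short genes. In FeAAD9 the members lay 0.77 above and the other short genes 0.21. RNA quality values are not analysed here, and the part of transcript length in the RP share was not tested beyond the alternative fits below.

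**Figure D3:**
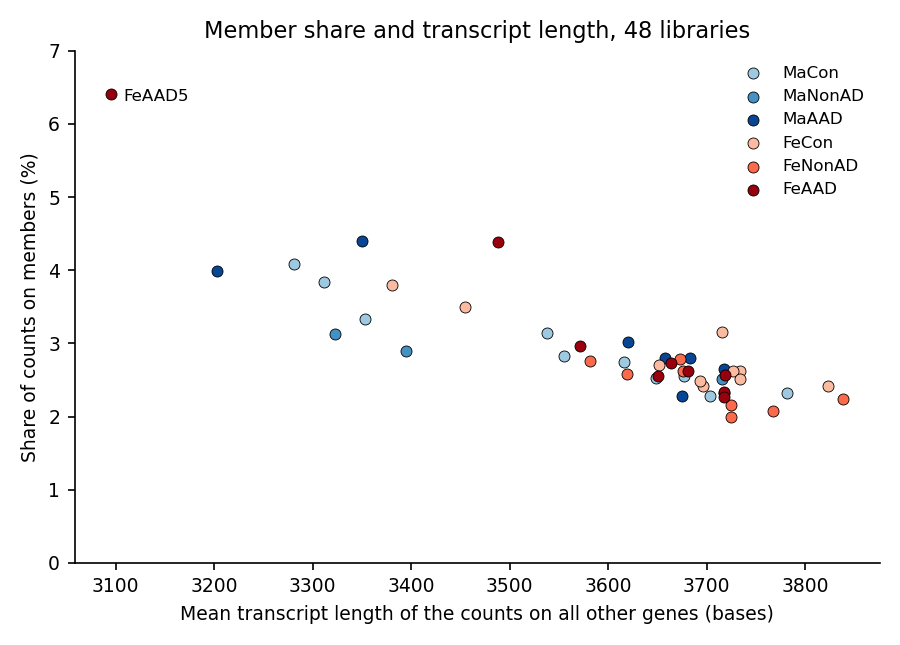
Share of counts on the RP genes (y axis, percent) against the count-weighted mean transcript length of the counts on all other genes (x axis, bases; the axis does not start at 0), 1 point per library, coloured by group. The 7 libraries above 3.5% lie at 3488 bases or below, and FeAAD5 has both the highest share, 6.40%, and the shortest mean length, 3096 bases.

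FeAAD5 also had the highest summed level of 8 leukocyte markers, at 4734 CPM, where the other FeAAD libraries had 444 to 1169 CPM. The level in FeAAD9 was 787 CPM. FeAAD5 and FeAAD9 had the lowest summed levels of 5 endothelial markers of all libraries, 283 and 213 CPM. MaAAD7 had 2954 CPM of leukocyte markers, the highest in its group. The summed level of 4 proliferation markers was highest of all 48 libraries in FeAAD5, FeAAD9 and MaAAD7, at 359.8, 255 and 195.5 CPM. Other libraries with a high RP share went the other way. MaCon5 (share 4.08%) had 207 CPM of leukocyte and 5.34 CPM of proliferation markers, below its group medians of 246 and 8.17 CPM. MaAAD1 (3.99%) had 817 and 41.4 CPM, below its group medians of 1260 and 89.8 CPM. None of the leukocyte, endothelial or proliferation markers was at 0 in every library of a group. Their part in the RP levels was not tested. As a check of the aortic label, all 6 smooth muscle markers were detected in every library, with group medians of their sum between 22119 and 46329 CPM.

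The balance of the subunits varied less than the total. The 40S genes took 38.9% ± 0.72 (SD, n = 48) of the RP counts, from 37.6% in FeCon4 to 41.6% in FeAAD5. The lowest, median and highest were 38.1%, 38.4% and 39.2% in MaCon and 38.9%, 39.5% and 39.9% in MaAAD. In FeCon they were 37.6%, 38.3% and 39%, in FeNonAD 38.3%, 38.6% and 39.2%, and in FeAAD 38.8%, 39.4% and 41.6%. The 4 MaNonAD libraries had 39.3%, 38.5%, 38.2% and 38.7%. The 2 lesion groups thus lay higher than their controls in the median, with overlap at the edges.

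Between groups, 9 comparisons and 2 differences of responses between the sexes were tested for 78 members by edgeR's quasi-likelihood test, with Benjamini-Hochberg adjustment over all 14431 tested genes. A member was called at an adjusted p under 0.05, and counted as a differentially expressed gene (DEG) if its absolute log2 fold change was also at least 1. No member was a DEG in any comparison, where the DEG rule took 11.4% of all genes in MaAAD vs. MaCon, 12.7% in FeAAD vs. FeCon, 7.04% in FeAAD vs. FeNonAD and 2.75% in FeNonAD vs. FeCon. In MaNonAD vs. MaCon and MaAAD vs. MaNonAD it took 0.478% and 0.353%. Between the sexes it took 1.51% in controls, 0.0485% in NonAD and 0.0693% in AAD, and for the 2 differences of responses 0.298% without and 0.520% with a lesion. No member had groups that did not overlap in any of the 9 comparisons, where the share of all tested genes without overlap ran from 0.0624% in MaAAD vs. FeAAD to 8.91% in MaAAD vs. MaCon and was 0.229% in FeAAD vs. FeNonAD and 0.741% in FeNonAD vs. FeCon.

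**Figure D4:**
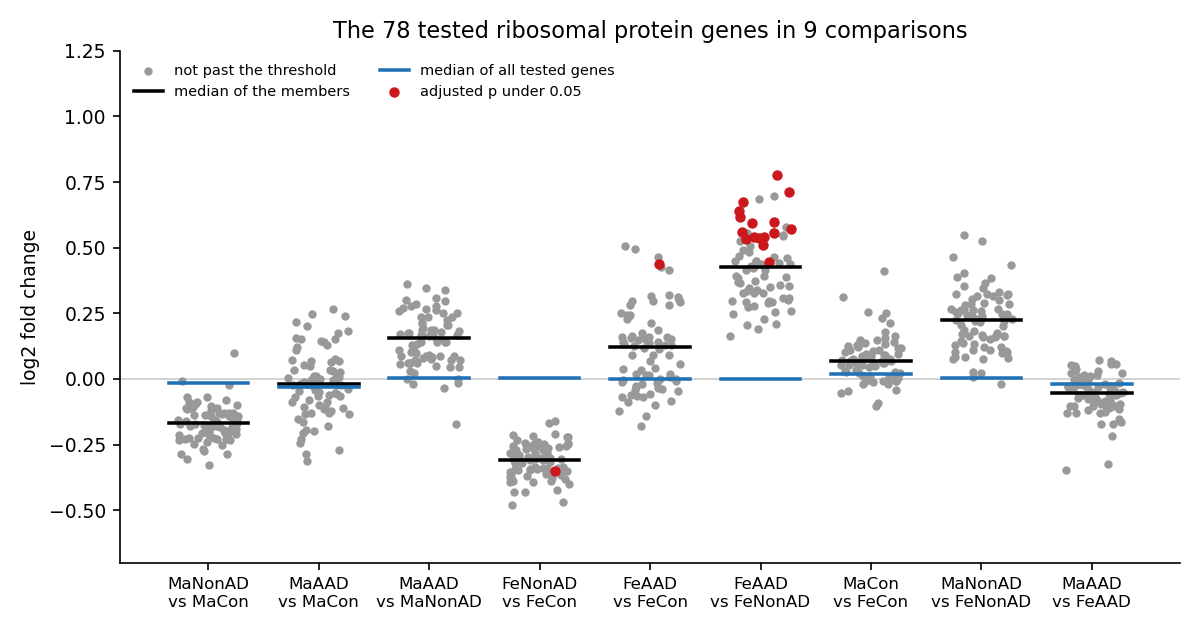
log2 fold changes (y axis) of the 78 tested RP genes in 9 pairwise comparisons (x axis), with called genes in red, the median of the members in black and the median of all tested genes in blue. The members lie wholly below 0 in FeNonAD vs. FeCon (median −0.31) and wholly above 0 in FeAAD vs. FeNonAD (median 0.43), and cluster around 0 in MaAAD vs. MaCon (median −0.02).

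FeNonAD was the group with the lowest RP levels. It had the lowest group mean for 75 of the 76 members above 10 CPM, and the lowest group median for 74 of 76. Over all tested genes it had the lowest mean for 11.4% and the lowest median for 9.76%. The members deviated together within libraries, so these counts are not 76 separate observations. Relative to the average of the 6 group means, the typical member stood at 0.82 in FeNonAD, 0.95 in MaNonAD, 1.01 in FeCon, 1.05 in MaAAD, 1.07 in MaCon and 1.09 in FeAAD. By group medians FeNonAD was again lowest, at 0.88, but FeAAD came next at 0.98. FeAAD had the highest mean for 41 of the 76 members and the highest median for 1. These orders are of CPM, without a correction for transcript length. The place of FeNonAD below MaNonAD depended on this. In MaNonAD vs. FeNonAD the median log2 fold change of the members was 0.23, and −0.01 with the transcript length offset described below.

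In FeNonAD vs. FeCon, BAPN without a lesion against water in females, all 78 members had negative log2 fold changes, with a median of −0.31 (range −0.48 to −0.16), where the median of all tested genes was 0.00. In the same comparison 4 of 4 proliferation markers (median 1.65) and 1 fibroblast marker were called higher, 1 endothelial and 1 skeletal muscle marker were called lower, and 0 of 8 leukocyte and 0 of 6 smooth muscle markers were called. Their part in the RP values was not tested. Only 1 member, Rpl4, passed the threshold, where 7.66% of all genes were called lower. Rpl4, whose protein lines the exit tunnel of the large subunit, had a lowest, median and highest level of 819, 922 and 1135 CPM in FeCon and 647, 708 and 866 CPM in FeNonAD. The groups overlapped only between 819 and 866 CPM. The log2 fold change of Rpl4 came to −0.35 (SE 0.11, adjusted p = 0.022), and it stayed past the threshold in 57 of 57 alternative fits (adjusted p from 0.00062 to 0.050). Rpl3, one of the proteins at the peptidyl transferase center, had −0.31 (SE 0.12, adjusted p = 0.086). Rps6 had −0.34 (SE 0.14, adjusted p = 0.098). Rpl10 had −0.29 (SE 0.11, adjusted p = 0.073).

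The count of lower members depended on how transcript length was handled. With an offset for transcript length fitted per library, 31 of the 78 members were called, all lower, where 10.8% of all genes were called lower in that fit. The first of them were Rpl21 (−0.31, SE 0.07, adjusted p = 0.0017), Rpl4 (−0.34, SE 0.08, adjusted p = 0.0018) and Rpl24 (−0.37, SE 0.09, adjusted p = 0.0024). The median over the members was −0.26 in that fit. With only the 18 libraries of both groups in the fit, 16 of 77 members were called lower, where 8.82% of all genes were. Without FeAAD5, which is in neither group but enters the shared estimate of spread, 5 of 78 were (Rpl10, Rpl21, Rpl3, Rpl4 and Rps6), where 8.99% of all genes were. The median was −0.30 and −0.31 in these fits.

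In FeAAD vs. FeNonAD, lesion against no lesion under BAPN in females, all 78 members had positive log2 fold changes, with a median of 0.43 (range 0.16 to 0.78), where the median over all genes lay at 0. This comparison shares its 8 FeNonAD libraries with the previous one. In all, 16 members, 20.5% of the 78, were called higher, where 13.2% of all genes were called higher. Of these 16, 10 encode 40S proteins, 5 carry 60S names and 1 belongs to the stalk. The lowest p belonged to Rpsa, the laminin-receptor-like protein at the back of the small subunit. The 9 FeAAD libraries had 724, 850, 857, 914, 933, 1004, 1072, 1780 and 2435 CPM of Rpsa. In FeNonAD the lowest, median and highest were 642, 776 and 922 CPM. Of the 9 lesion libraries, 7 thus lay at or below 1072 CPM, and FeAAD9 and FeAAD5 made the upper end. Rpsa differed by 0.60 log2 units (SE 0.17, adjusted p = 0.013).

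Rplp0, the anchor of the stalk that recruits elongation factors, had 843 CPM, 1067 CPM and 2459 CPM as lowest, median and highest level in FeAAD and 693, 866 and 1045 CPM in FeNonAD. Rplp0 differed by 0.54 log2 units (SE 0.17, adjusted p = 0.024). Rpl39, a small protein of the exit tunnel, had 71.5, 96.5 and 377 CPM in FeAAD and 62.5, 71 and 121 CPM in FeNonAD. Rpl39 differed by 0.71 log2 units (SE 0.23, adjusted p = 0.026). All 3 genes peaked in FeAAD5, and for Rpl39 the next FeAAD library was at 161 CPM.

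**Figure D5:**
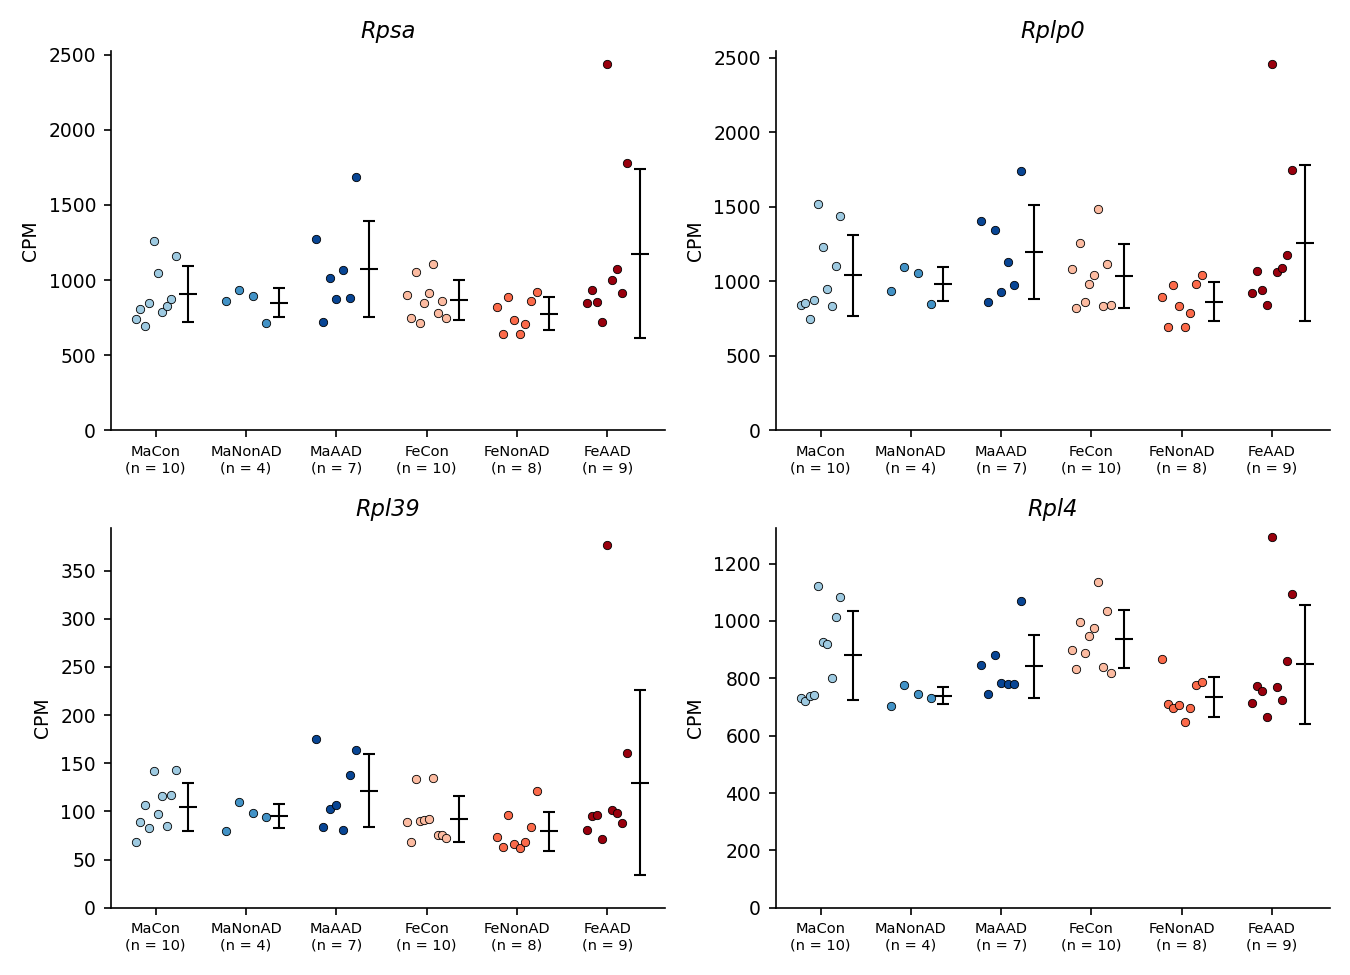
CPM (y axes, from 0) of Rpsa, Rplp0, Rpl39 and Rpl4 in each library (points) of the 6 groups, with group mean and SD. In the panels of Rpsa, Rplp0 and Rpl39, FeAAD5 (2435, 2459 and 377 CPM) lies above every other library, and in the Rpl4 panel most FeNonAD libraries (647 to 866 CPM) lie below the FeCon libraries (819 to 1135 CPM).

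Of the genes fixed for their roles, Rps27a rose by 0.54 log2 units (SE 0.17, adjusted p = 0.026) and Rps19 by 0.62 (SE 0.21, adjusted p = 0.033). Rpl32l rose by 0.78 (SE 0.26, adjusted p = 0.029) from a low level, 1.85 CPM on average in FeNonAD and 3.17 CPM in FeAAD, with 8.99 CPM in FeAAD5. Rpl5 and Rpl11, partners in the 5S particle, had 0.30 (SE 0.14, adjusted p = 0.13) and 0.48 (SE 0.20, adjusted p = 0.080). Rpl22 had 0.35 (SE 0.14, adjusted p = 0.081), Rpl38 0.68 (SE 0.32, adjusted p = 0.13) and Rpl41 0.70 (SE 0.29, adjusted p = 0.084). In the stalk, Rplp1 and Rplp2 had 0.56 (SE 0.22, adjusted p = 0.066) and 0.42 (SE 0.22, adjusted p = 0.19). Rps20 had 0.46 (SE 0.19, adjusted p = 0.081) and Rpl36 0.31 (SE 0.25, adjusted p = 0.41). The other called members were Rps12, Rps15a, Rps26, Rps2, Rps13, Rpl12, Rpl32, Rpl15, Rps18 and Rps28, between 0.44 and 0.67 log2 units. Of the 16, Rps12, Rps15a, Rps2, Rps13, Rpl12 and Rpl15 had counts that were not whole in some library, so that their reads were shared out with other genes and their levels are less certain. In the same comparison, 7 of 8 leukocyte markers were called higher (median log2 fold change 1.60), 5 of 6 smooth muscle markers were called lower (median −0.57), and 5 of 5 erythroid, 4 of 4 proliferation and 2 of 5 fibroblast markers were called higher. The erythroid calls rested on FeAAD2, whose 5 erythroid markers summed to 26918 CPM, against 235 to 2134 CPM in the other FeAAD libraries. Without FeAAD2, 0 of 5 erythroid, 1 of 5 fibroblast and 3 of 6 smooth muscle markers were called, and without FeAAD5 5 of 5, 1 of 5 and 3 of 6, while the leukocyte and proliferation counts were the same. Their part in the RP values was not tested.

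The calls of FeAAD vs. FeNonAD rested on few libraries. Without FeAAD5, 0 of the 78 members were called by edgeR and 9 had an unadjusted p under 0.05, where 8.25% of all genes were called higher and 23.1% had an unadjusted p under 0.05, although all 78 log2 fold changes were positive, with a median of 0.22. Rpsa then had 0.39 (SE 0.15, adjusted p = 0.087). Without FeAAD9, 2 members were called, Rpsa and Rpl39, where 11.1% of all genes were called higher. Without FeNonAD2 or FeNonAD4 3 were called, without FeNonAD5 4, without FeNonAD6 6 and without FeNonAD1 10, where between 10.9% and 12.0% of all genes were called higher, whereas without FeAAD4 37 were called, where 15.1% of all genes were. With only the 17 libraries of both groups in the fit, 0 were called by edgeR and 39 of 78 had an unadjusted p under 0.05, where 28.5% of all genes did. With the replicate number of the labels as a block, 1 was called, Rpsa. In the last 2 fits 7.62% and 10.4% of all genes were called higher. DESeq2 called 25, where it called 12.9% of all genes higher, and the transcript length offset gave 27 (median 0.25), where 14.4% of all genes were called higher in that fit.

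In FeAAD vs. FeCon, 1 member was called higher, where 23.8% of all genes were, and the median of the members was 0.12. In the same comparison 7 of 8 leukocyte, 4 of 4 proliferation and 5 of 5 erythroid markers were called higher, also without FeAAD2, though the median log2 fold change of the erythroid markers was then 1.33 against 3.62. Of the other lists, 2 of 5 fibroblast and 1 of 5 endothelial markers were called higher, and 6 of 6 smooth muscle, 4 of 7 cardiac muscle, 2 of 4 skeletal muscle and 1 of 5 endothelial markers lower. Their part in the RP values was not tested. The called gene was Rpsa, with 713, 854 and 1106 CPM as lowest, median and highest level in FeCon, and the difference was 0.44 log2 units (SE 0.16, adjusted p = 0.026). Without FeAAD5 its value was 0.23 (SE 0.14, adjusted p = 0.20), and without FeAAD9 0.34 (SE 0.16, adjusted p = 0.087). The direction of the members as a whole turned without FeAAD5: their median was −0.09, 62 of 78 were below 0, and Rpl4, Rpl21 and Rpl30 were called lower, where 18.5% of all genes were called lower in that fit. With the transcript length offset, 7 members were called, of which 6 were lower (Rpl21, Rpl10, Rps27, Rpl4, Rpl30 and Rpl23a) and Rpsa was higher, where 22.2% of all genes were called lower and 24.7% higher. The median of the members was −0.01 in that fit.

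In males, no member was called in MaNonAD vs. MaCon (0.624% of all genes called), MaAAD vs. MaCon (35.0%) or MaAAD vs. MaNonAD (0.409%). At an unadjusted p under 0.05 there were 0, 1 and 0 members, where 12.0%, 43.6% and 18.7% of all genes were. In MaAAD vs. MaCon 5050 of 14431 genes were called, and the RP genes had a median log2 fold change of −0.02 (range −0.31 to 0.26), with 34 above and 44 below 0. There 7 of 8 leukocyte (median 2.09), 4 of 4 proliferation (median 3.19), 3 of 5 fibroblast and 1 of 5 endothelial markers were called higher. All 6 smooth muscle markers were called lower (median −1.06), and no erythroid, brown fat, cardiac or skeletal muscle marker was called. The part of these markers in the RP values was not tested. Rpsa had 696, 837 and 1259 CPM as lowest, median and highest level in MaCon and 722, 1012 and 1686 CPM in MaAAD. Its 4 MaNonAD libraries had 860, 933, 897 and 711 CPM. With the transcript length offset, 8 members were called in MaAAD vs. MaCon, of which 7 were higher, among them Rpl32, Rpl22 and Rps12, and Rpl21 was lower, with log2 fold changes between −0.21 and 0.37, where 21.1% of all genes were called higher and 17.2% lower. The median of the members was 0.08 in that fit. In MaNonAD vs. MaCon 77 of 78 members were negative (median −0.17), and in MaAAD vs. MaNonAD 73 were positive (median 0.16). With the replicate block these medians were 0.03 and 0.02, so that the first direction turned. The 4 MaNonAD libraries limit the precision of both, with a median SE of 0.23 and 0.24 log2 units per member. DESeq2 also called 0 members in all 3 male comparisons. Of all genes it called 0.65% higher and 0.42% lower in MaNonAD vs. MaCon and 17.8% and 13.4% in MaAAD vs. MaCon. In MaAAD vs. MaNonAD it called 4.83% and 0.51%.

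Between the sexes, no member was called in MaCon vs. FeCon (14.3% of all genes called), MaNonAD vs. FeNonAD (0.0624%) or MaAAD vs. FeAAD (0.0901%), and none reached an unadjusted p under 0.05, where 29.1%, 6.47% and 2.22% of all genes did. Medians of the members were 0.07, 0.23 and −0.05. They depended on the fit: with the transcript length offset they were −0.13 (3 members called lower, where 8.76% of all genes were), −0.01 and −0.02, and with the replicate block the third was 0.02. The difference between the sexes in the response to BAPN without a lesion was called for 0 members (0.416% of all genes), with a median of 0.15, and the difference in the response with a lesion for 0 members (1.34%), with a median of −0.13. With the transcript length offset the second median turned to 0.11, and to 0.19 when FeAAD5 was also left out. Lowest adjusted p-values were 0.75 and 0.43. DESeq2 called 0 members in all 5. In the order given above, it called 6.59%, 0.032%, 0.043%, 0.61% and 1.64% of all genes higher. It called 9.06%, 0.021%, 0.027%, 0.55% and 1.05% of all genes lower. FeNonAD vs. FeCon and MaNonAD vs. MaCon are therefore not shown to differ for any member.

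Of the 10 further RP genes that the naming rule leaves out, 9 were listed and 8 were tested. Their median log2 fold change was −0.28 in FeNonAD vs. FeCon and 0.45 in FeAAD vs. FeNonAD, and in FeAAD5 they lay a median of 1.20 log2 units above their group means. Fau, the fusion of a ubiquitin-like protein with the 40S protein eS30, averaged 233 CPM ± 73 (SD, n = 10) in FeCon, 168 ± 29.5 (n = 8) in FeNonAD and 235 ± 117 (n = 9) in FeAAD. Rps3a1, a 40S gene, averaged 787 ± 91.9, 638 ± 58.6 and 787 ± 287 CPM in the same groups. In FeAAD vs. FeNonAD 1 of the 8 was called higher, near the 13.2% of all genes, namely Rpl22l1, the paralog of Rpl22 (33.9 CPM ± 3.54 in FeNonAD and 50.4 ± 27.8 in FeAAD, a difference of 0.57 log2 units with an SE of 0.18 and an adjusted p of 0.019), and its highest FeAAD level was 112 CPM, in FeAAD5, against a median of 39.6 CPM. Without FeAAD5 its difference was 0.33 (SE 0.14, adjusted p = 0.14). Rpl36al averaged 76.3, 67.8 and 96.5 CPM, Rps27l 44.3, 42.5 and 56.4 CPM, and Rpl7l1, a biogenesis factor rather than a ribosomal subunit protein, 75.7, 66.9 and 75.2 CPM in FeCon, FeNonAD and FeAAD. Rpl37rt averaged at most 2.33 CPM and Rps27rt at most 0.20 CPM in a group. By within-group deviation over the 48 libraries, the genes above 10 CPM outside the rule that were most like the mean of the members were Eif3k (r = 0.97), Fau (0.97), Rack1 (0.96), Ap2s1 (0.96) and Hint1 (0.96), and the members themselves had a median of 0.96.

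The 78 mitochondrial ribosomal proteins, which serve a separate ribosome, had 0 calls in FeNonAD vs. FeCon and FeAAD vs. FeNonAD, with medians of −0.02 and 0.10. In FeAAD vs. FeCon 4 were higher (23.8% of all genes), in MaAAD vs. MaCon 3 were lower (16.1% of all genes) and in MaCon vs. FeCon 8 were higher (6.38% of all genes). Outside the ribosome itself, 19 translation genes with TOP mRNAs were tested. In FeNonAD vs. FeCon all 19 were negative (median −0.30) and 6 were called lower, where 7.66% of all genes were. The lowest p belonged to the initiation factor Eif4b, which averaged 299 CPM ± 28.7 in FeCon and 231 ± 9.56 in FeNonAD (log2 difference −0.37, SE 0.06, adjusted p = 0.00013), and to the elongation factor Eef2, with 2360 ± 342 and 1797 ± 134 CPM (−0.39, SE 0.09, adjusted p = 0.0025). In FeAAD vs. FeNonAD all 19 were positive (median 0.20) and 4 were called higher, where 13.2% of all genes were. Pabpc1, the poly(A)-binding protein, had 0.37 (SE 0.10, adjusted p = 0.0075) and Eef1b2 0.73 (SE 0.20, adjusted p = 0.0093), which without FeAAD5 were 0.29 (adjusted p = 0.037) and 0.45 (adjusted p = 0.080). In FeAAD vs. FeCon 3 of the 19 were called higher and 3 lower, where 23.8% and 20.6% of all genes were. Eif4b was the gene of this list whose lesion response differed between the sexes, by 0.34 log2 units (SE 0.09, adjusted p = 0.042), where 1.34% of all genes were called. Eif4b was also 0.36 log2 units lower in MaCon than in FeCon (SE 0.06, adjusted p = 7.8e-05), with 233 and 299 CPM on average, while MaAAD and FeAAD averaged 242 and 245 CPM. FeAAD vs. FeCon gave −0.29 (SE 0.06, adjusted p = 0.00019), and MaAAD vs. MaCon gave 0.05 (SE 0.07, adjusted p = 0.56).

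Of 44 ribosome biogenesis genes, 4 were called lower in FeNonAD vs. FeCon, near the 7.66% of all genes, led by Nop14 (−0.32, SE 0.08, adjusted p = 0.0079) and Gnl2 (−0.26, SE 0.07, adjusted p = 0.0091). In FeAAD vs. FeNonAD 3 were called higher, where 13.2% of all genes were, among them Nhp2 (0.85, SE 0.26, adjusted p = 0.018), a protein of the box H/ACA particles that pseudouridylate ribosomal RNA, and Nip7 (0.41, SE 0.15, adjusted p = 0.046). Without FeAAD5 these 2 genes had 0.51 (adjusted p = 0.15) and 0.22 (adjusted p = 0.28). In MaAAD vs. MaCon 5 were higher, where 18.9% of all genes were, led by Rrs1 (0.56, SE 0.15, adjusted p = 0.0020) and Wdr43 (0.31, SE 0.10, adjusted p = 0.019), and Nop10 was lower (−0.43, SE 0.15, adjusted p = 0.020). Of 13 regulators of RP synthesis, Myc, an activator of ribosome biogenesis, averaged 7.96 CPM ± 2.99 (n = 10) in MaCon and 20.1 ± 8.04 (n = 7) in MaAAD (log2 difference 1.34, SE 0.30, adjusted p = 0.00038). It was also higher in FeAAD vs. FeNonAD (1.16, SE 0.30, adjusted p = 0.0050). In MaAAD vs. MaCon 4 of the 13 regulators were lower, where 16.1% of all genes were, led by the mTOR inhibitor Tsc2 (−0.42, SE 0.08, adjusted p = 1.8e-05) and the mTOR complex scaffold Rptor (−0.33, SE 0.11, adjusted p = 0.013), while the RP genes in that comparison were centred on −0.02. In FeAAD vs. FeNonAD, Tsc2 (−0.25, SE 0.07, adjusted p = 0.012) and Mtor itself (−0.33, SE 0.11, adjusted p = 0.031) were lower, 2 of the 13 where 5.00% of all genes were, and without FeAAD5 Mtor had −0.26 (adjusted p = 0.099). In FeAAD vs. FeCon Myc was higher and Tsc1, Mtor, Rps6kb2 and Rheb were lower, 1 and 4 of the 13, where 23.8% and 20.6% of all genes were. In FeNonAD vs. FeCon 1 of the 13 was lower, the S6 kinase gene Rps6kb2 (−0.39, SE 0.13, adjusted p = 0.032), a share near the 7.66% of all genes.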

How the data were processed

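mRNA of 48 thoracic aorta samples was made into strand-specific libraries and sequenced on a DNA NanoBall platform. The table deposited by the authors held 1 expected count per gene and library (RSEM 1.3.1 after Bowtie2, build GRCm39, per the submitters' processing notes). Expected counts were rounded to whole numbers before testing, and every column was matched to a sample. Totals were 13548003 to 17281262 per library (median 15681334). Counts of 52 members were whole (within 0.005) in every library, and those of 28 were not, since RSEM shares reads between near-identical genes.

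Genes were filtered (edgeR 4.0.16, filterByExpr), scaled by TMM and fitted for 6 groups in 48 libraries. The robust quasi-likelihood test was used with Benjamini-Hochberg adjustment. On simulated counts for FeAAD vs. FeNonAD, this procedure recovered 51% of 1.5-fold and 87% of 2-fold changes, with 7 false calls. Recovery of changes smaller than 1.5-fold was not tested. CPM uses TMM-scaled totals, and log2 levels use a pseudocount of 1. Alternatives were DESeq2 1.42.0, other scalings, no filter, an offset for transcript length, the replicate block, fits of the compared groups only and fits without single libraries. Transcript lengths came from GENCODE M21 (shortest principal transcript, 95.9% of genes).

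Members and lists were chosen with earlier results of these data known. Named with values were, by rule, the 3 called members of lowest p per direction, members fixed for their role, the 3 highest and lowest per kb and by spread, RP genes outside the naming rule, and the 2 called genes of lowest p per direction of the translation, biogenesis and regulator lists. The other called members and library extremes were named after their values were seen. Some genes the rule would name are not reported here.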

Additional observations from a re-analysis of the deposited data

Results flagged for a closer look

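Dixon's test marks a library whose distance to its nearest neighbour takes up too much of its group's range, and chance marks about 1 in 20 groups. It was run on the RP share, the 40S share and 7 members in the 6 groups, 54 group tests in all, and marked 9 values. Rpl39 was 377 CPM in FeAAD5, with the next FeAAD library at 161 CPM. Rpl4 was 1070 CPM in MaAAD7 (next 883 CPM). Rpl38 was 149 CPM in MaCon5 (next 78.1 CPM) and 139 CPM in MaAAD1 (next 74.6 CPM). Rpl3l was marked in 5 groups: 1.39 CPM in MaCon6, 0.32 CPM in MaNonAD2, 1.63 CPM in MaAAD7, 1.44 CPM in FeCon10 and 0.37 CPM in FeAAD2. The RP share of FeAAD5, 6.40%, was not marked, since FeAAD9 at 4.39% lay between it and the rest.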

How the results depend on the processing

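No called member changed direction in its comparison under any alternative run. The count of called members changed by more than 1.5 times in the following cases. In FeAAD vs. FeNonAD it was 25 with DESeq2, 27 with library totals alone (13.4% of all genes higher), 27 with the transcript length offset, 0 with only the compared groups and 4 with the length offset without FeAAD5 (9.22% of all genes higher), against 16, and between 0 (without FeAAD5) and 37 (without FeAAD4) when single libraries were left out. In FeNonAD vs. FeCon it was 31 with the length offset, 16 with only the compared groups and 47 with the offset without FeAAD5 (12.3% of all genes lower), against 1, and between 1 and 5 (without FeAAD5) when single libraries were left out. In FeAAD vs. FeCon it was 5 with library totals (27.6% of all genes higher), 7 with the offset, 0 with only the compared groups (19.6% of all genes higher, 15.9% lower) and 17, all lower, with the offset without FeAAD5 (20.9% of all genes lower), against 1, and between 0 (without FeAAD9, where 22.6% of all genes were higher) and 4 (without FeAAD4, where 24.1% were) with single libraries left out. Against 0, the offset gave 8 in MaAAD vs. MaCon, 1 in MaAAD vs. MaNonAD and 3 in MaCon vs. FeCon, and without FeAAD5 14, 8 and 11. In the fits with the offset and all libraries, 21.1%, 2.38% and 5.83% of all genes were called higher and 17.2%, 0.22% and 8.76% lower, and without FeAAD5 22.2%, 6.69% and 6.85% higher and 18.4%, 1.64% and 10.1% lower. The cause was not tested. Leaving out libraries other than those of MaNonAD, FeCon10 and FeNonAD8, and the offset without FeAAD5, were chosen after seeing the data, as were the marker and list values without FeAAD2 or FeAAD5.

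The replicate numbers were not taken as a pairing, since within no comparison did every pair of samples with the same number correlate above 0.1 (r from −0.53 to 0.47). The mean r of a comparison ran from −0.07 in MaAAD vs. MaCon to 0.16 in MaAAD vs. FeAAD, where 3 of 7 pairs were above 0.1. A rule that every pair must pass is strict, so it cannot tell whether the numbers share a weaker factor. The replicate block gave 1 called member in FeAAD vs. FeNonAD. With the length offset added to the block it was 12 there, all higher, where 11.8% of all genes were called higher. The block together with the length offset gave 11 in MaAAD vs. MaCon, 19 in FeNonAD vs. FeCon, 7 in FeAAD vs. FeCon and 4 in MaCon vs. FeCon, where 20.1%, 6.10%, 23.7% and 5.76% of all genes were called higher and 16.5%, 7.79%, 21.7% and 7.98% lower.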
